A study of Xenopus tropicalis with 84 samples.

Results

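The comparison described here is that of *nup107* MO with uninjected control (UIC) embryos of *Xenopus tropicalis* at 7.5, 8, 8.5 and 9 hours post-fertilization (hpf), the early gastrula part of a longer time course. Its members are the 4 *nup107* MO and the 4 UIC polyA+ libraries that the labels give for these times, 8 of the 42 polyA+ libraries and of 84 labelled samples, paired by time point. That the values are those of the polyA+ libraries rests on the name of their table, since a table named for ribosomal RNA depleted libraries holds identical values. A morpholino oligonucleotide (MO) that covers the translation start of *nup107* was injected, 10 ng per embryo, into 1-cell embryos of the Nigerian strain. UIC siblings received no injection, so every difference includes whatever the injection did by itself. Each library was made from 10 embryos, and there is 1 library per time point and condition. The 4 pairs are therefore successive time points and not biological replicates, and p-values measure the spread between time points. All 8 libraries hold RNA of whole embryos, in which fewer cells of a type and less RNA per cell cannot be told apart.

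Nup107 is a scaffold protein of the Y-complex, the ring-forming unit of the nuclear pore, through which RNA and protein pass between nucleus and cytoplasm. In the early gastrula the zygotic genome is active, maternal mRNAs are being cleared, and signals of the Nodal, BMP and Wnt families set up the germ layers and the dorsal organizer. A polyA+ library records mRNA with a poly(A) tail, and in early frog embryos maternal mRNAs can gain or lose tails without being made or degraded.

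Values are TPM as deposited, a gene's share of the transcripts of a library, and the number of reads behind them is unknown. Differences are log2((MO + 1)/(UIC + 1)), on which genes near 1 TPM change by less than their ratio. Of 34192 genes in the table, 13192 were tested, those over 0.4 TPM in 6 consecutive libraries of a condition and with a mean of at least 1 TPM over the 8 libraries. ERCC spike-ins, RNAs added in a fixed amount, took from 5.8% to 6.2% of the TPM in the 4 UIC libraries and from 4.91% to 5.45% in the 4 *nup107* MO libraries, so that the ranges did not overlap. In each library, between 14671 and 14787 genes were over 0.4 TPM. The labelled tissue was checked with markers of tissues that form later: of 23 such genes in the table, 12 stayed under 1 TPM in all 8 libraries, among them *ins*, *gcg*, *neurod1* and *myh6*, and 6 were listed at 0 throughout. The rest reached 1 TPM or more in at least 1 library, with highest values of 17.15 TPM for *elavl3*, 8.1 for *foxj1*, 8 for *tubb2b* and 3.7 for *myl1*. The check was therefore only partly met. The summed level of the 23 genes was 18.9 to 33.0 TPM in UIC and 21.2 to 46.9 TPM in *nup107* MO.

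The first question was which genes differed in the same way across the 4 pairs. A single gene passed, *slc9a3r1*, which encodes a scaffold protein that ties membrane proteins to the cortical cytoskeleton. It had 56.5, 58.7, 51.8 and 59.2 TPM in UIC at 7.5, 8, 8.5 and 9 hpf and 34.3, 31.5, 28.0 and 33.5 TPM in *nup107* MO. All 4 *nup107* MO libraries lay below all 4 UIC libraries. The mean log2 difference was -0.81 ± 0.06 (SE, 4 pairs), or 56.9% of the UIC level, with an adjusted p of 0.0498 (limma with the time point as a block, Benjamini-Hochberg over 13192 genes). Each SE in the text is the moderated one of a limma fit, drawn toward that of genes of like intensity. For a gene whose 4 differences scatter widely, it can be smaller than the SE of those differences alone. The call was lost when any 1 pair was left out, with adjusted p-values from 0.0731 to 0.419. Called genes made up 0.00758% of genes tested for lower expression and 0% for higher expression. Before adjustment, 847 genes (6.42%) were higher and 859 genes (6.51%) were lower at p under 0.05. The 4 libraries of each condition did not overlap at 145 genes (1.1%) with *nup107* MO above and 126 genes (0.955%) with *nup107* MO below. No other gene named below passed this test.

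When the spread was instead estimated over all 42 polyA+ libraries, with a separate difference for 7.5 to 9 hpf, 456 genes passed at an adjusted p under 0.05, of which 159 (1.21% of genes tested) were lower in *nup107* MO and the rest (2.25%) higher. The difference of a gene is the same number in both fits, and the second fit assumes that these 8 libraries vary around their means like the other 34. Its adjusted p-values are named below as those of the 42-library fit. In deviation from their neighbours in time, described below, UIC at 9, 8.5 and 8 hpf ranked 1, 2 and 6 of 38 libraries. The rest of the 8 ranked from 19 to 35. The assumption is thus doubtful for these UIC libraries, and the adjusted p-values of this fit may be too small. Of the higher genes, 97.6% had the same sign in all 4 pairs, as had 155 of the 159 lower ones. Over all genes tested, 10.2% were higher and 12.4% lower in all 4 pairs. The calls were made on the mean of these same differences, so this agreement is a description.

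The targeted gene came first among the higher genes. *nup107* had 126, 104, 81.3 and 65.4 TPM in UIC and 195.4, 181, 169 and 136 TPM in *nup107* MO, again without overlap. Both conditions lost this mRNA over the window, and each *nup107* MO library stood above the UIC library of its time. The mean difference was 0.88 ± 0.08 (SE, 4 pairs), a 1.84-fold level, with an adjusted p of 0.129 in the 8 libraries and 8.3e-07 in the 42-library fit. It grew between windows, since it was 0.12 at 5.5 to 7 hpf and the increase of 0.75 ± 0.10 (SE) passed the test of the change (adjusted p = 0.0029, limma over 42 libraries). Such an MO blocks translation of the mRNA, whose level therefore says nothing of how far the protein was depleted.

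**Figure D1:**
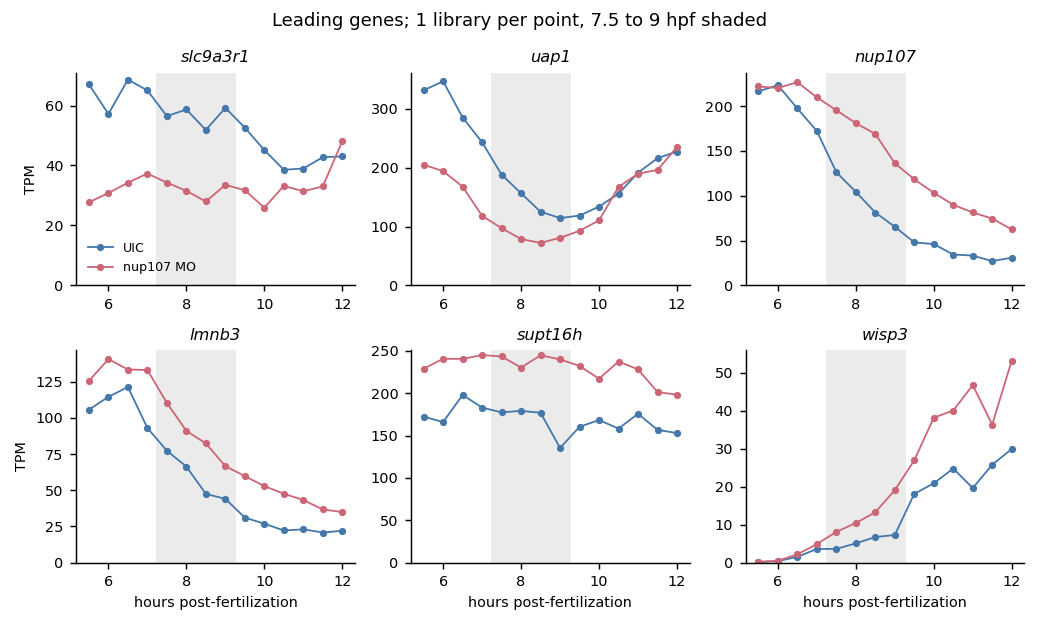
TPM of 6 leading genes against hours post-fertilization from 5.5 to 12 hpf in UIC (blue) and *nup107* MO (red), with 1 library per point and 7.5 to 9 hpf shaded. At 7.5 to 9 hpf *slc9a3r1* and *uap1* lie lower and *nup107*, *lmnb3*, *supt16h* and *wisp3* higher in *nup107* MO at each time point.

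Among other genes that led the higher side, *wisp3*, a secreted protein of the CCN family, was at 3.6, 5.05, 6.73 and 7.26 TPM in UIC and at 8.08, 10.4, 13.3 and 19.1 TPM in *nup107* MO. The gene was being induced in both conditions, and its lowest *nup107* MO library was above its highest UIC library. The difference was 1.02 ± 0.10 (SE, 4 pairs; adjusted p = 2.4e-05 in the 42-library fit). *lmnb3*, a B-type lamin of the egg and early embryo, decreased from 77.3 to 44.01 TPM in UIC and from 110.4 to 66.7 TPM in *nup107* MO, with a difference of 0.58 ± 0.07 (SE). *supt16h*, a subunit of the histone chaperone FACT, had 177, 179, 177 and 135 TPM in UIC and 243.5, 230.4, 244.9 and 239.98 TPM in *nup107* MO. Its UIC library of 9 hpf was the low one, and its difference was 0.43 without that pair and 0.53 with it. *ppp6r1*, a regulatory subunit of protein phosphatase 6, differed by 0.46, *pm20d1*, a secreted enzyme of N-acyl amino acids, by 0.63, and *ppm1g*, a PP2C-type phosphatase, by 0.37. All of these genes passed in the 42-library fit. Without the 9 hpf pair, *ppm1g* no longer did (adjusted p = 0.181).

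On the lower side, *uap1*, which makes the sugar donor UDP-N-acetylglucosamine, had 188, 157, 125 and 114 TPM in UIC and 97.3, 78.7, 72.2 and 80.9 TPM in *nup107* MO. The gap narrowed over the window, from -0.95 at 7.5 hpf and -0.98 at 8 hpf to -0.78 and -0.50. The mean was -0.80 ± 0.09 (SE, 4 pairs; adjusted p = 2.4e-05 in the 42-library fit). *fbxl15*, an F-box protein of a ubiquitin ligase, had 33.3, 27.9, 22.8 and 20.4 TPM in UIC and 19.96, 20.8, 16.2 and 12.8 TPM in *nup107* MO. *ube2t*, a ubiquitin-conjugating enzyme of DNA repair, differed by -0.35 and *aggf1*, named as an angiogenic factor, by -0.42. *b3gnt7*, a glycosyltransferase, differed by -0.37 and *lrrc42* by -0.48. These 6 genes were named from those lower in 4 of 4 pairs (12.4% of genes tested), so that agreement was a condition of the choice. All 6 passed in the 42-library fit. Without the 9 hpf pair, *ube2t* (adjusted p = 0.153) and *lrrc42* (adjusted p = 0.0944) no longer did. *rab5c*, a small GTPase of early endosomes, was named in the same way, at -0.53, but did not pass in the 42-library fit (adjusted p = 0.191).

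The second question was how far the 9 hpf pair carried the result. The differences were widest in that pair, with an SD over genes of 0.45 against 0.27 at 7.5 hpf, 0.32 at 8 hpf and 0.34 at 8.5 hpf. At 9 hpf 397 genes (3.01%) were over 1 on the log2 scale, against 67 (0.508%), 129 (0.978%) and 161 (1.22%) in the earlier pairs. Below -1 the counts were 106 (0.804%) at 9 hpf and 57 (0.432%), 104 (0.788%) and 79 (0.599%) before. The surplus at 9 hpf was thus on the higher side. Of the 397 genes, 291 were past 1 in none of the other pairs and none was past 1 in all 4, though 259 were above 0 in each of the other 3. Their median difference was 0.18, 0.56 and 0.36 at 7.5, 8 and 8.5 hpf, 1.54 at 9 hpf and 0.26 at 9.5 hpf, the next pair of the course. The 106 lower genes had medians of -0.16, -0.15 and 0 in the earlier pairs, and 19 of them were below 0 in all 3.

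The count of calls depended on this pair more than on any other. In the 42-library fit, 456 genes were called with all 4 pairs and 43 without the 9 hpf pair, 26 higher and 17 lower, of which 41 were among the 456. Leaving out the 8 hpf pair left 120 calls, the 8.5 hpf pair 405 and the 7.5 hpf pair 499. Among the higher genes the median difference was 0.26, 0.44, 0.33 and 0.99 from 7.5 to 9 hpf, and among the lower genes it was -0.25, -0.24, -0.22 and -0.35. Both sets were chosen with the 9 hpf pair included, so these medians are a description.

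**Figure D2:**
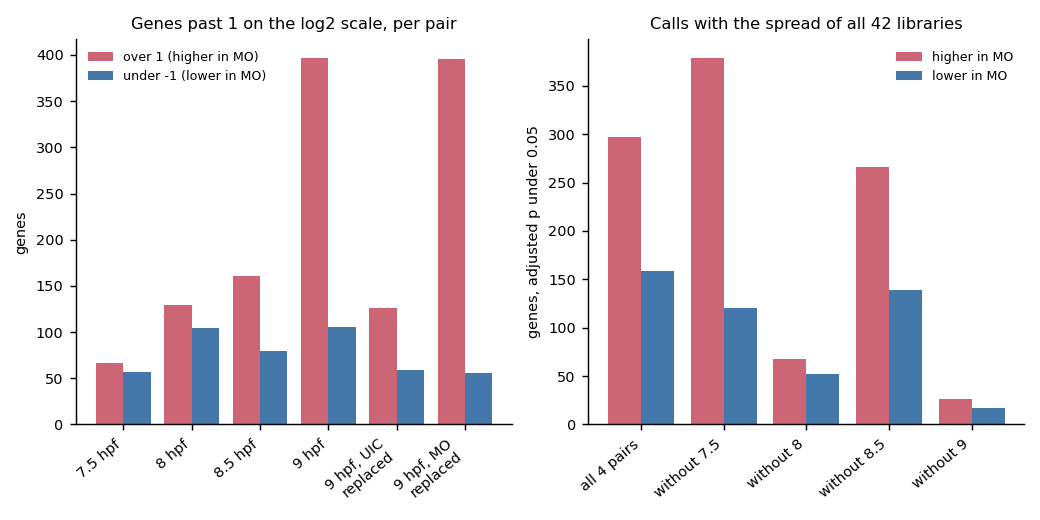
Left, the number of genes with a log2 difference over 1 (red) or under -1 (blue) in each pair and in the 9 hpf pair after 1 of its libraries was replaced by the mean of its neighbours. Right, the number of genes at an adjusted p under 0.05 in the 42-library fit with all 4 pairs and with each pair left out. The 9 hpf pair has 397 genes over 1, which drop to 126 once its UIC library is replaced and stay at 396 once its *nup107* MO library is, and the calls drop from 456 to 43 without it.

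The 9 hpf pair was also set against genes chosen without it. Of 1219 genes at an unadjusted p under 0.05 from the 7.5, 8 and 8.5 hpf pairs alone, 1002 (82.2%) had the same sign in the 9 hpf pair, against 64.2% of all genes tested. The same shares were 73.0% against 58.5% for the 7.5 hpf pair, 65.0% against 55.6% for the 8 hpf pair and 74.9% against 60.4% for the 8.5 hpf pair. The genes that were higher in the first 3 pairs had a median of 0.33 there and of 0.60 at 9 hpf, and the lower genes -0.26 and -0.22. The 9 hpf pair thus enlarged differences on the higher side that the other pairs also showed. Outside the window, 732 of the 847 genes with higher expression (86.4%) were above 0 at 5.5 to 7 hpf and 737 (87.0%) at 9.5 to 12 hpf. For the 859 genes with lower expression, 726 (84.5%) and 593 (69.0%) were below 0, and the shares of the same sign over all genes were 66.9% and 60.0%. Neighbouring time points are not independent, so these shares carry no test.

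Of the 2 libraries at 9 hpf, the UIC one stood apart from its neighbours. Each inner library of the course was set against the mean of the libraries 0.5 h before and after it in its condition. The UIC library of 9 hpf had the widest deviation of 38 libraries, with an SD of 0.35 over genes, against 0.25 for the *nup107* MO library of 9 hpf, which ranked 26. The margin was small, since UIC at 8.5, 6.5 and 6 hpf came next, at 0.33, 0.33 and 0.32. It also had the most genes that lay more than 1 below their neighbours. When UIC at 9 hpf was replaced by the mean of UIC at 8.5 and 9.5 hpf, the 397 genes over 1 became 126, while the same replacement of the *nup107* MO library left 396. A mean of 2 libraries is also less noisy than 1. UIC at 8.5 hpf, used in that replacement, itself ranked 2 in deviation, which is measured partly against UIC at 9 hpf. Of the 397 genes, 92.9% were lower in UIC at 9 hpf than in both of its neighbours, whereas 26.7% were higher in *nup107* MO at 9 hpf than in both of its own. These genes were chosen by their 9 hpf difference, which favours low UIC and high *nup107* MO values there. Both shares are therefore a description, and no share over all genes stands beside them. In the UIC library of 8 hpf, 64.0% of the genes called higher in the 42-library fit were lower than in both neighbours, and 57.2% were so in *nup107* MO at 8 hpf. The calls included the 8 hpf pair, so these shares too are a description.

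**Figure D3:**
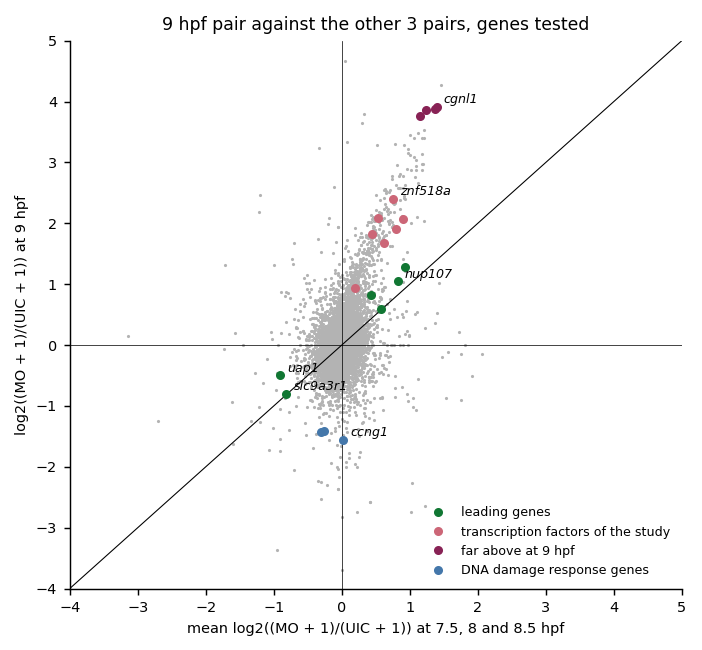
Log2 difference in the 9 hpf pair against the mean of the 7.5, 8 and 8.5 hpf pairs for the 13192 genes tested, with the line of equal values. The leading genes lie near the line. *cgnl1*, at 3.91 against 1.40, and the transcription factors of the study lie far above it, and *ccng1*, at -1.55 against 0.02, lies below it. Most leading genes were named for a small p over the 4 pairs, which favours pairs that are alike. *cgnl1* and *ccng1* were chosen after their values were seen, so these positions are a description.

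Where the mean over the 8 libraries reached 5 TPM, the 5 genes that the 9 hpf pair moved farthest in each direction have LOC numbers or no symbol. LOC101733579, for example, had 3.37, 48.3, 2.26 and 1.83 TPM in UIC and 2.93, 54.4, 2.83 and 27.7 TPM in *nup107* MO. Of the genes with a symbol and at least this mean that moved far upward at 9 hpf, 6 are given here, chosen after their values were seen. *cgnl1*, a protein of cell junctions, had 80.5, 15.1, 46.7 and 12.3 TPM in UIC and 96.7, 57.4, 199.6 and 199.5 TPM in *nup107* MO. *cenpe*, a kinetochore motor of mitosis, had 15.8, 3.80, 7.19 and 3.28 TPM in UIC and 13.01, 10.2, 45.01 and 57.0 TPM in *nup107* MO. The Golgi protein *gcc2*, the DNA damage proteins *mdc1* and *rad50* and the chromatin remodeller *chd1* followed the same course, with UIC low at 8 and 9 hpf and *nup107* MO high at 8.5 and 9 hpf. At 9 hpf these 6 genes differed by 3.40 to 3.91, and in *nup107* MO they were 2.24 to 4.28 times higher at 9 hpf than at 9.5 hpf. For *cenpe* the difference of 3.76 became 2.83 with the neighbours of UIC and 2.69 with those of *nup107* MO.

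The 7 transcription factors that the study drew from its cluster of increased genes also had their largest median difference of the window at 9 hpf. The study picked them from these libraries, so their direction is no independent evidence. *znf462* had 53.3, 18.9, 34.4 and 8.61 TPM in UIC and 59.5, 34.5, 52.2 and 39.8 TPM in *nup107* MO. Within the window its UIC series was lowest at 8 and 9 hpf and overlapped with *nup107* MO. At 9.5 hpf UIC had 18.8 TPM, about its 8 hpf value, and it had 12.7 TPM at 10 hpf and 15.3 TPM at 11.5 hpf. Before the window, at 5.5, 6, 6.5 and 7 hpf, *znf462* had 51.1, 45.9, 75.3 and 62.3 TPM in UIC and 91.7, 104.6, 106.5 and 73.5 TPM in *nup107* MO. At these times *znf518a* had 87.7, 65.3, 97.6 and 96.8 TPM in UIC and 202.5, 183.5, 181.2 and 96.3 TPM in *nup107* MO. For both genes a difference was thus present before the 9 hpf pair. *rest*, a repressor of neuronal genes, had 30.1, 13.8, 24.1 and 10.0 TPM in UIC and 38.1, 24.7, 40.6 and 34.4 TPM in *nup107* MO. The mean difference of *rest* was 0.88 ± 0.20 (moderated SE, 4 pairs), and 0.62 without the 9 hpf pair. Over the 7 genes the median difference was 0.15, 0.84, 0.92 and 1.91 in the 4 pairs. All 7 means were above 0 and 6 had an unadjusted p under 0.05 (all genes tested, 6.42% on the higher side). In the 42-library fit *znf518a*, *znf462* and *rest* passed (all genes tested, 2.25% on the higher side). *hivep1*, *mga*, *arid4b* and *bbx* did not, and none of the 7 passed without the 9 hpf pair. Without that pair 43 of all 13192 genes passed, so none among 7 says little about the list. With UIC at 9 hpf replaced by its neighbours, the 9 hpf difference of *znf462* went from 2.08 to 0.62 and that of *rest* from 1.68 to 0.77.

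**Figure D4:**
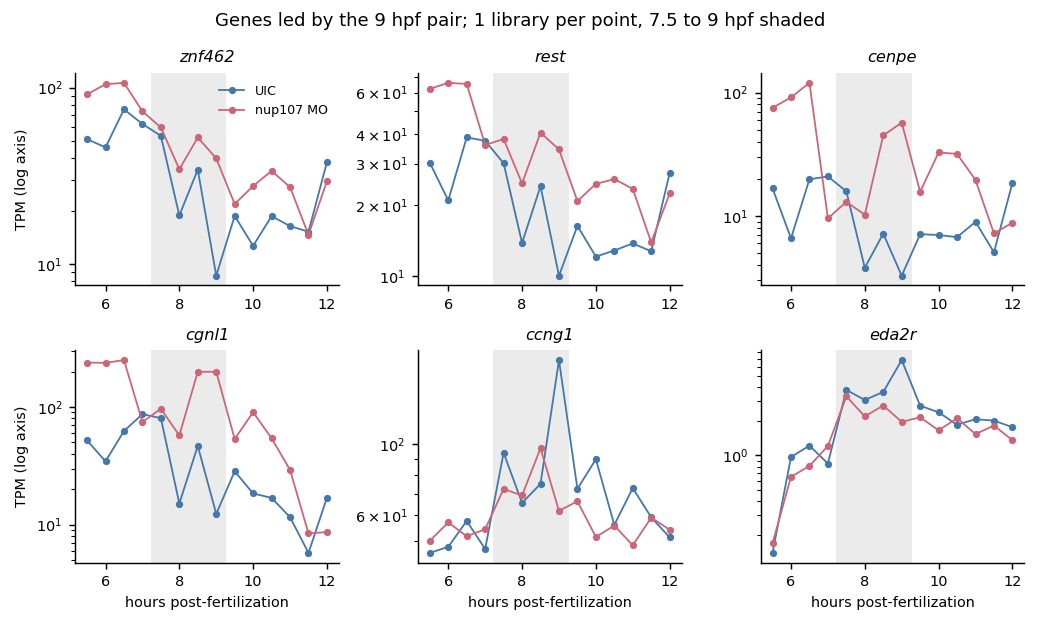
TPM on log axes of *znf462*, *rest*, *cenpe*, *cgnl1*, *ccng1* and *eda2r* from 5.5 to 12 hpf in UIC (blue) and *nup107* MO (red), with 1 library per point and 7.5 to 9 hpf shaded. UIC dips at 8 and 9 hpf in the first 4 genes, and it peaks at 9 hpf in *ccng1*, at 184 TPM, and in *eda2r*, at 6.86 TPM.

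On the lower side of the 9 hpf pair, 4 genes of the list of the p53 pathway are given, chosen after their values were seen. The figures label this list as the DNA damage response, of which it covers only p53 pathway genes. *ccng1*, a cyclin-like protein, had 94.1, 65.6, 75.2 and 184 TPM in UIC and 72.5, 69.2, 97.3 and 61.9 TPM in *nup107* MO. The 9 hpf library of UIC was the high one, and UIC was back at 72.6 TPM at 9.5 hpf. The receptor gene *eda2r* was at 6.86 TPM in UIC at 9 hpf and at 3.6 and 2.73 TPM in the libraries around it, and at 1.97 TPM in *nup107* MO. *mdm2*, a ubiquitin ligase, was at 89.3 TPM in UIC at 9 hpf, between 61.7 and 64.3 TPM, and at 56.1 TPM in *nup107* MO. *cdkn1a*, a cell cycle inhibitor, stood at 3.24 TPM in *nup107* MO and 6.87 TPM in UIC at 9 hpf. Over the 24 genes tested of this list, the median was -0.08, -0.04, -0.02 and -0.21 in the 4 pairs (all genes at 9 hpf, -0.03). Among the 24, none was higher and 3 were lower at an unadjusted p under 0.05 (all genes tested, 6.42% and 6.51%). *gadd45a*, a growth arrest gene, differed by 0.02. Of the 14 genes tested of the innate immune response, none reached an unadjusted p under 0.05 (all genes tested, 12.9%). The 2 most abundant, *rela* and *ifih1*, differed by -0.01 and 0.26, of which the latter was 0.10 without the 9 hpf pair.

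The third question was whether genes of the germ layers differed at the onset of gastrulation. No member of these lists passed in the 8 libraries. Of 18 organizer genes tested, 3 had an unadjusted p under 0.05 on the higher side (all genes tested, 6.42%) and none on the lower side (all genes tested, 6.51%). *cer1*, a secreted inhibitor of Nodal, BMP and Wnt signals, had 50.5, 117, 326 and 522 TPM in UIC and 76.3, 217.4, 343 and 603 TPM in *nup107* MO. Each *nup107* MO library was above its partner, most at 7.5 and 8 hpf, when the differences were 0.59 and 0.88. The mean was 0.44 ± 0.13 (SE, 4 pairs), with an adjusted p of 0.0423 in the 42-library fit and 0.136 there without the 9 hpf pair. The Wnt antagonists *frzb* and *frzb2* differed by 0.29 and 0.40. For the organizer genes as a list, the median was 0.25 at 7.5 hpf, 0.09 at 8 hpf, -0.04 at 8.5 hpf and -0.12 at 9 hpf. The organizer factor *gsc* had 125, 141, 142 and 138 TPM in UIC and 147, 149, 129 and 117 TPM in *nup107* MO. The 2 conditions overlapped and the sign turned within the window, as it did for the list. *chrd*, a BMP antagonist, differed by 0.06, *nog* by -0.18 and the most abundant member, *foxa4*, by 0.09.

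Of 22 endoderm genes tested, 4 (18.2%) were higher and 5 (22.7%) lower at an unadjusted p under 0.05 (all genes tested, 6.42% and 6.51%). *cer1*, described above, is also a member of this list, so the counts of organizer and endoderm genes are not separate. *foxa1*, a forkhead factor, had 1.58, 4.37, 11.1 and 25.9 TPM in UIC and 3.03, 6.00, 14.7 and 31.3 TPM in *nup107* MO. It was higher in each pair, by 0.42 ± 0.09 (SE, 4 pairs) in the mean, and passed in the 42-library fit with the 9 hpf pair (adjusted p = 0.0091) and without it (adjusted p = 0.0200). *gata4*, a zinc finger factor of the endoderm, differed by 0.20. The lower members were the factors *sox17a* (-0.13) and *bix1.1* (-0.20) and the TGF-beta family ligands *nodal* (-0.22), *nodal2* (-0.24) and *gdf3* (-0.17), none of which passed in the 42-library fit. *nodal* had 169, 119, 66.4 and 41.3 TPM in UIC and 165, 100.3, 61.5 and 29.2 TPM in *nup107* MO. Its gap was widest at 9 hpf, at -0.49, and its mean was -0.13 without that pair. *mixer*, a homeodomain factor of the mesendoderm, had 120, 171, 186 and 301 TPM in UIC and 119, 168, 176 and 236 TPM in *nup107* MO, so that its difference of -0.12 came from 9 hpf.

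Mesodermal and ventral genes showed less. Of 20 mesoderm genes tested, none was higher (all genes tested, 6.42%) and 1 (5%) lower (all genes tested, 6.51%) at an unadjusted p under 0.05, *hes7.1* at -0.23. *vegt*, a maternal and zygotic T-box factor, had 908 to 1028 TPM in UIC and 879 to 1008 TPM in *nup107* MO. *t*, the brachyury gene, differed by 0.13 and *eomes* by -0.19. Of 17 genes of the ventral BMP group, 1 (5.88%) reached an unadjusted p under 0.05, on the lower side, the ligand *bmp2* at -0.22. The BMP targets *ventx1.2*, *ventx2.1* and *id3* differed by 0.06, 0.06 and 0.07. The medians of these lists were 0.02 and 0.06, next to -0.01 over all genes.

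Of 23 epidermal genes tested, 3 were higher and 1 lower at an unadjusted p under 0.05 (all genes tested, 6.42% and 6.51%). *msx2*, a homeodomain factor, had 0.62, 1.73, 4.71 and 9.95 TPM in UIC and 1.1, 2.31, 6.33 and 12.2 TPM in *nup107* MO. Each *nup107* MO library was above its partner, and the difference of 0.32 passed in the 42-library fit (adjusted p = 0.0356). It no longer passed without the 9 hpf pair (adjusted p = 0.198). *tfap2a* differed by 0.14, *upk3b* by 0.13 and *tp63* by -0.34. *trim33*, a ubiquitin ligase that limits Smad signals, had 94.0, 77.5, 65.4 and 38.1 TPM in UIC and 98.5, 74.9, 71.0 and 57.6 TPM in *nup107* MO, and its difference of 0.18 became 0.05 without the 9 hpf pair. The most abundant epidermal members, *cldn6.1* and *epcam*, differed by -0.02 and 0.05. Of 25 neural genes, 2 (8%) were higher and 3 (12%) lower at an unadjusted p under 0.05 (all genes tested, 6.42% and 6.51%). The higher ones included *hoxd1* (0.26), and the lower ones were *otx1* (-0.35), *sox3* (-0.17) and *gmnn* (-0.16). Of these, *sox3* and *gmnn* were also the most abundant. The ciliary factor *foxj1*, counted here among the later markers, had 3.22 to 8.10 TPM in UIC and 4.07 to 7.16 TPM in *nup107* MO. The study uses it as a dorsal mesodermal marker at the onset of gastrulation, so it is not only a gene of later tissues.

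Many of these genes move fast at this age, so the differences were set against each gene's own course in UIC, taken from libraries outside the window, as the change from 6.5 and 7 hpf to 9.5 and 10 hpf. This split was chosen after the values of the lists were seen. The 1239 genes that increased by more than 1 on the log2 scale had a median difference of 0.12 at 7.5 hpf, 0.04 at 8 hpf, 0.00 at 8.5 hpf and 0.10 at 9 hpf. At 7.5 hpf 896 of them (72.3%) were higher in *nup107* MO, and at 8.5 hpf 626 (50.5%). The 3653 genes that decreased by more than 1 had medians of -0.05, -0.08, 0.02 and -0.09, and the 8300 genes between had 0.03, -0.03, 0.01 and -0.03. At an unadjusted p under 0.05, 159 of the 1239 increasing genes were higher and 28 lower. The counts were 249 and 455 of the 3653 decreasing genes, and 439 and 376 of the 8300 between. Over all genes tested the shares were 6.42% and 6.51%. The order of the medians was the same when the course was taken from *nup107* MO, with medians of 0.11 and -0.06 at 7.5 hpf. At 8.5 hpf it was absent, and the part of this course in the values of single genes was not tested.

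**Figure D5:**
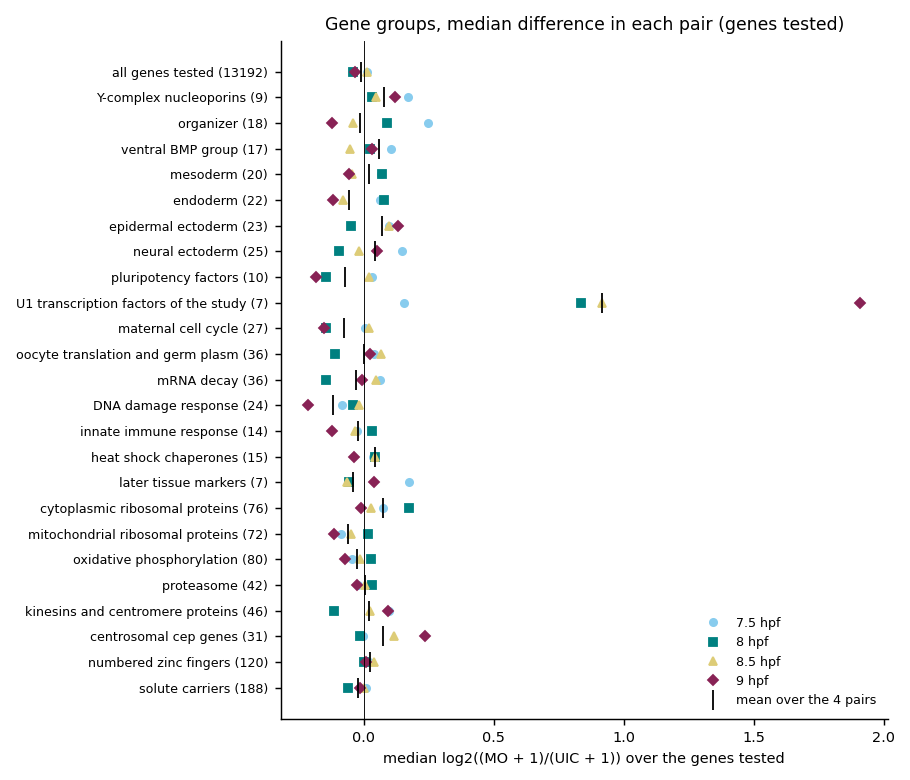
Median log2 difference over the genes tested of each list, with 1 symbol per pair and a bar for the mean over the 4 pairs, beside that of all 13192 genes; the number of genes tested stands in parentheses. The transcription factors of the study run from 0.15 at 7.5 hpf to 1.91 at 9 hpf, while the other lists stay within 0.25 of 0 in every pair.

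In the protein synthesis machinery, ribosomal proteins of the cytoplasm had more members higher than lower. Of 76 gene rows of cytoplasmic ribosomal proteins, 20 (26.3%) were higher and 1 (1.32%) lower at an unadjusted p under 0.05 (all genes tested, 6.42% and 6.51%). In all 4 pairs 23 were higher (all genes tested, 10.2%). *rpl19* had 143, 139.6, 170.1 and 193.3 TPM in UIC and 212, 213, 222 and 244.5 TPM in *nup107* MO, without overlap. Its difference was 0.47 ± 0.06 (SE, 4 pairs; adjusted p = 0.0032 in the 42-library fit). *rpl5* had 250.1, 247, 277.8 and 319.6 TPM in UIC and 308.6, 327, 347.2 and 377 TPM in *nup107* MO, a difference of 0.32 ± 0.04 (SE). In the 42-library fit 6 of the 76 passed on the higher side with all pairs (all genes tested, 2.25%). Without the 9 hpf pair 4 passed, when 26 of all 13192 genes did, so these 4 calls did not need that pair. The median of the list was 0.07, 0.17, 0.03 and -0.01 in the 4 pairs (all genes at 9 hpf, -0.03). The most abundant members, *rps18* and *rps25*, differed by 0.01 and 0.04. Mitochondrial ribosomal proteins had no member higher and 8 of 72 (11.1%) lower at an unadjusted p under 0.05, with *mrps11* at -0.20 and *mrpl53* at -0.26 without overlap and a median of -0.06. Among 80 genes of oxidative phosphorylation 2 (2.5%) were higher and 7 (8.75%) lower, and among 42 genes of the proteasome none was higher and 1 (2.38%) lower.

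Cell division and maternal genes were divided. Of 27 maternal cell cycle genes, 2 (7.41%) were higher and 4 (14.8%) lower at an unadjusted p under 0.05 (all genes tested, 6.42% and 6.51%). *cdk1*, the mitotic kinase, had 122, 99.6, 83.8 and 75.2 TPM in UIC and 126, 117, 111 and 103 TPM in *nup107* MO, and its gap widened from 0.05 to 0.45. *mad2l1*, of the spindle checkpoint, had 49.2, 40.6, 42.3 and 37.3 TPM in UIC and 32.8, 36.1, 32.3 and 28.5 TPM in *nup107* MO, without overlap. Both passed in the 42-library fit, *cdk1* at 0.28 and *mad2l1* at -0.37, and neither passed there without the 9 hpf pair. The abundant cyclins *ccnb1.2* and *ccna2* differed by -0.05 each. Among 36 genes of oocyte translation and germ plasm, 5 (13.9%) were higher and 4 (11.1%) lower. *dnd1*, an RNA-binding protein of the germ plasm, had 188, 160.5, 134 and 107 TPM in UIC and 208.3, 204, 172 and 148 TPM in *nup107* MO. *h1foo*, the linker histone of the oocyte, had 1340.2, 857, 583 and 441 TPM in UIC and 1109, 772, 547 and 325 TPM in *nup107* MO. Their differences of 0.33 and -0.24 both passed in the 42-library fit and not without the 9 hpf pair. Among 36 genes of mRNA decay, 1 (2.78%) was higher and 2 (5.56%) lower, and the most abundant, *cnot2* and *edc4*, differed by 0.01 each.

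Of 46 kinesins and centromere proteins, 9 (19.6%) were higher and 5 (10.9%) lower at an unadjusted p under 0.05 (all genes tested, 6.42% and 6.51%). Of 31 centrosomal *cep* genes, 10 (32.3%) were higher and 2 (6.45%) lower. Besides *cenpe*, one of the higher members was *cep170*, which had 13.4, 2.78, 6.85 and 1.84 TPM in UIC and 14.9, 9.2, 23.7 and 18.2 TPM in *nup107* MO. In the 42-library fit 4 genes of the first list and 5 of the second were higher with all pairs (all genes tested, 2.25%). None was without the 9 hpf pair, when 26 of all 13192 genes were. The most abundant members, *cenpa*, *kif23*, *cep85* and *cep120*, differed by -0.03, 0.15, -0.11 and 0.04. Of the 120 genes with numbered zinc finger names, 18 (15%) were higher and 3 (2.5%) lower. For example, *znf407* had 28.4, 8.33, 23.5 and 5.54 TPM in UIC and 36.6, 23.7, 51.9 and 47.7 TPM in *nup107* MO. In the 42-library fit 8 of these were higher (all genes tested, 2.25%), and none without the 9 hpf pair. With 26 of 13192 genes called higher without that pair, none in a list of this size says little about the list.

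The 9 measured nucleoporins of the Y-complex had 1 member past an unadjusted p of 0.05, *nup107*, and a median of 0.08. *sec13* differed by 0.08, *nup133* by 0.14 and *ahctf1* by 0.39, of which the last was 0.14 without the 9 hpf pair. Outside the complex, *nup62* differed by 0.13 and *nup188* by 0.00. Of 15 heat shock genes tested, 2 (13.3%) were higher and 1 (6.67%) lower at an unadjusted p under 0.05 (all genes tested, 6.42% and 6.51%). *hspa8*, the most abundant, differed by 0.07. *hsp90aa1.1*, an inducible chaperone, had 11.0, 6.26, 10.1 and 3.31 TPM in UIC and 12.1, 11.0, 13.2 and 12.95 TPM in *nup107* MO. Among later tissue markers, the neuronal RNA-binding gene *elavl3* was at 0.55, 0.96, 3.86 and 2.30 TPM in UIC and at 1.13, 1.55, 6.75 and 17.2 TPM in *nup107* MO, and did not pass in the 42-library fit (adjusted p = 0.0568). Of 10 pluripotency factors, none was higher and 1 lower at an unadjusted p under 0.05, *sox3*, and *lin28a*, an RNA-binding protein of this list, differed by -0.01. Of 188 solute carriers tested, the transporters of the cell and organelle membranes, 7 (3.72%) were higher and 9 (4.79%) lower, both under the shares over all genes. *slc38a3*, an amino acid transporter, had 6.45, 11.1, 22.1 and 33.0 TPM in UIC and 12.7, 15.7, 24.96 and 40.9 TPM in *nup107* MO. Its gap was widest at 7.5 hpf. The most abundant carriers, *slc25a5* and *slc25a3* of the mitochondrial membrane, differed by 0.13 and -0.03. *odc1*, a gene used as a reference, had 2996 to 3186 TPM in UIC and 3099 to 3321 TPM in *nup107* MO.

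The genes called without the 9 hpf pair in the 42-library fit did not need that pair for their call. A call lost without it does not by itself show that the pair carried the difference. Without it the mean of *ppm1g* went from 0.37 to 0.40 and that of *cer1* from 0.44 to 0.52, and both lost the call. The means of *ube2t* and *lrrc42*, which lost it too, went from -0.35 to -0.32 and from -0.48 to -0.46. How many lost calls went each way was not counted. Among the 26 higher genes, beside *nup107*, *wisp3*, *supt16h*, *lmnb3*, *ppp6r1*, *rpl19*, *rpl5* and *foxa1*, were *gtf2b*, a general transcription factor (0.32 over 4 pairs), *eef1b2*, a translation elongation factor (0.35), and *ercc5*, a DNA repair nuclease (0.53). Among the 17 lower genes, beside *slc9a3r1*, *uap1*, *fbxl15*, *aggf1* and *b3gnt7*, were *cyb5r3*, a cytochrome b5 reductase (-0.86), and *map1lc3a*, an autophagy protein (-0.31). These were named after their values were seen.

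The level of the whole transcriptome depends on the scaling. The spike-in share was lower in *nup107* MO in 4 of 4 pairs, and when libraries were scaled by it the median difference over all genes moved from -0.01 to 0.16. Then 4720 genes were higher and 81 lower at an unadjusted p under 0.05, 3 genes passed after adjustment on the higher side, and *slc9a3r1*, at -0.63, did not pass. Differences in the text are therefore relative to the bulk of the transcripts, and that scaling raised the mean difference of single genes by up to 0.18, so that differences less than this below 0 can turn sign, as did *nog* and *gdf3*. Whether injected embryos held more mRNA or received less spike-in cannot be told apart.

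Against the neighbouring windows, the difference changed at few genes. From 5.5 to 7 hpf to 7.5 to 9 hpf the change passed at 1 gene (0.00758%), *nup107*. Between 7.5 to 9 hpf and 9.5 to 12 hpf it passed at 15 genes, 3 of them with a higher difference at 7.5 to 9 hpf (0.0227%) and 12 with a lower one (0.0910%). *uap1* was among the latter, since its difference of -0.80 had shrunk to -0.10 at 9.5 to 12 hpf (change -0.70 ± 0.11, SE, adjusted p = 0.0131). *gmfb*, a regulator of actin branching, and *larp6*, an RNA-binding protein, went from 0.15 and 0.18 to 0.62 and 0.66. Without the 9 hpf pair the change passed at 1 and 12 genes. Under spike-in scaling the change against 9.5 to 12 hpf passed at 0 genes (1838 at an unadjusted p under 0.05, limma), so that all 15 calls were lost. The transcription factors of the study did not pass this test, with adjusted p-values of 0.50 for *znf462* and 0.595 for *rest* against the later window.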

How the data were processed

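Expression was taken from the table of polyA+ libraries that the authors deposited, in TPM per gene. Reads were mapped by the authors with STAR to Xt9.1 together with the spike-in sequences, and RSEM gave the TPM. The deposited TPM include the spike-ins in the total of each library and lack the dinucleotide correction that the study applied before its own test. Read numbers are not kept in TPM, so no counting error is given. The table named for ribozero samples is identical to it and was not used, so the library type rests on the table's name. The 2 conditions were siblings taken at the same time points, which gives the pairing.

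limma 3.58.1 in R 4.3.3 was applied to log2(TPM + 1), with a block for time points and an intensity trend, and p-values were adjusted over 13192 genes. SEs are the moderated ones of these fits. An exact sign-flip test of 4 pairs cannot go below p = 0.125 and was not used. The fit of all 42 libraries gave each of 5 windows its own difference. The script was tested on simulated data. Tables and plots were made in Python 3.11.15 with pandas 2.3.3 and matplotlib 3.10.9.

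Genes were named by rule: *nup107*, the 8 genes leading each direction with a symbol and a mean of at least 5 TPM, filled by the smallest unadjusted p among genes with 1 sign in all pairs where fewer passed, the 2 most abundant members of each of 24 lists where none passed, the 5 genes per direction farthest off at 9 hpf, and genes named by the study. Others are given as examples chosen after their values were seen. Members and lists were chosen with earlier results of these data known. Alternatives covered the pairs, pseudocount, scaling, filter, trend, weights and block. Symbols are those of the table; 7405 genes have none, and *t* is brachyury. Some genes of the lists are counted but not reported here by name.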

Additional observations from a re-analysis of the deposited data

Results flagged for a closer look

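In 86 named genes and 24 lists, the 4 differences of the pairs were examined for a value far from the other 3. Chance flags about 1 in 20, and 5 genes and 1 list stood out. That rate does not hold for genes named because their 9 hpf difference lay far from the other 3, LOC101733579 among them. At 9 hpf *ccna2* (-0.22), the gene row gene14576 (4.66), LOC101733579 (3.34) and the median of the heat shock chaperones (-0.04) lay apart. *rela* lay apart at 7.5 hpf (0.14) and LOC108644482 at 8.5 hpf (5.32), where *nup107* MO had 78.9 TPM and the other 7 libraries had at most 1.22 TPM.

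The difference between *nup107* MO and UIC changed between windows at 16 genes by the test of the change (limma over 42 libraries, adjusted p under 0.05). For *nup107* it was 0.75 higher than at 5.5 to 7 hpf. Against 9.5 to 12 hpf, where no change passed under spike-in scaling, it was higher for *mmp15* (0.90), *ccdc124* (0.38) and *tpm1* (0.28). It was lower for LOC108645136 (-1.31), *uap1* (-0.70), *fam84a* (-0.59), *larp6* (-0.49), *pde12* (-0.48), *gmfb* (-0.47), *rspry1* (-0.47), *rbpms2* (-0.43), *sec14l5* (-0.43), *atp6v1b2* (-0.41), *klhdc10* (-0.39) and *mylip* (-0.39).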

How the results depend on the processing

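The single call among the 8 libraries was not stable. It became 0 calls with any 1 pair left out (range 0 to 0, with 1219 to 1547 genes at an unadjusted p under 0.05, against 1706 with all pairs), with a pseudocount of 0.1 TPM (1683 genes unadjusted), with the run filter alone (1807), with no filter on low values (2026) and without a trend (1568). Spike-in scaling gave 3 calls and the fit of all 42 libraries 456. Without the replicate block there were 0 calls with the condition alone (2.90% of genes unadjusted) and 6 with a linear term in hpf. Median ratios, a pseudocount of 5 TPM, a mean of at least 5 TPM and array weights each left 1 call.

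Leave-one-out values of the 42-library fit, added after seeing the data, ran from 43 to 499 calls. The 397 genes over 1 at 9 hpf became 126 with UIC replaced by its neighbours and 97 with both libraries replaced. Changes against 5.5 to 7 hpf passed at 2 genes and against 9.5 to 12 hpf at 0 genes under spike-in scaling (1838 unadjusted), in place of 1 and 15. Over 86 named genes, the direction was kept at 74 without the 9 hpf pair, at 76 to 79 without another pair, at 63 under spike-in scaling and at 85 or 86 with another pseudocount, with median ratios or without the replicate block. *slc9a3r1* ran from -0.85 to -0.63. With 1 library per time point and no read numbers, no single pair has an error of its own.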
